A study of Mus musculus with 11 samples.

Results

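Lactate dehydrogenase turns pyruvate into lactate and back, and the mouse makes its subunits from several genes. Ldha encodes the subunit common in muscle, Ldhb the subunit common in heart, and Ldhc a subunit made in male germ cells and sperm. Ldha and Ldhc lie side by side on chromosome 7. The other genes described here encode steps of glycolysis that come before lactate dehydrogenase: hexokinase (Hk1), aldolase (Aldoa), glyceraldehyde-3-phosphate dehydrogenase (Gapdh), phosphoglycerate mutase in its widely expressed form (Pgam1) and in its muscle and testis form (Pgam2), and enolase (Eno1). Meiotic male germ cells are known for living largely on lactate and pyruvate supplied by Sertoli cells, and for switching several glycolytic steps to testis forms of the enzymes as they mature towards sperm.

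The 9 genes were chosen by symbol, Ldha, Ldhb, Ldhc, Gapdh, Pgam1, Pgam2, Aldoa, Hk1 and Eno1, and all 9 had a row among the 20389 rows of the count table. The study sorted live single cells of the adult testis that were positive for green fluorescent protein from a Dazl-GFP reporter, which marks germ cells, and counted the 3′ ends of their polyadenylated RNA with unique molecular identifiers (UMIs, tags that mark single RNA molecules). There were 3 untreated reporter mice and no other group; the labels name no further allele, treatment or age beyond adult. Mouse 1 was made into 8 libraries with the first version of the CEL-Seq chemistry, mouse 2 into 1 library and mouse 3 into 2 libraries with the second version, so that the animal and the chemistry cannot be told apart between mouse 1 and the others. One of the mouse 3 libraries was sorted through a gate and the other by index sorting.

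Of 1920 wells, 1448 held at least 1000 UMIs (545, 321 and 582 in mice 1 to 3), and 1219 of these cells were placed in 12 stages. Stages were called from variable genes of the odd-numbered autosomes without the 9 genes and without the metabolic lists described below, and were ordered along a diffusion pseudotime; a stage is a cluster of cells with fixed markers, not a cytologically staged cell. Stage 1 was undifferentiated spermatogonia-like, stages 2 and 3 differentiating spermatogonia-like, stages 5 to 8 leptotene and zygotene-like and stages 9 to 12 pachytene-like. Stages 8, 9 and 11 took their names from detected markers, but none of these was among the 10 leading genes of the stage. The X-linked UMIs of stage 8 lay near those of stages 9 to 12. Stage 4 was left unnamed; its 10 leading genes were Stra8, Clu, Rbpms2, Syt7, 1700019B21Rik, Mei1, Sparc, M1ap, Cst9 and Atp1b2. Counts were summed per mouse and stage, which gave 35 sums of 14 to 86 cells and 153110 to 4242592 autosomal UMIs; stage 11 of mouse 2 had 9 cells and was left out. The median cell of stage 5 held 6961 UMIs and the median cell of stage 12 held 95103. The X-linked UMIs fell from 3.31 per 100 autosomal UMIs at stage 6 to 1.39 at stage 7 and 0.337 at stage 8, and were 0.144 to 0.210 at stages 9 to 12. Levels are given as UMIs per 1000000 autosomal UMIs (CPM), as mean ± SD over mice. Each UMI stands for 1 captured 3′ end, so that levels of different genes need no correction for length, although capture can differ between genes.

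Ldha (chr7:46841475-46855627, plus strand, GRCm38) ends 5575 bases before Ldhc (chr7:46861203-46878142, plus strand). Ldhb lies at chr6:142490249-142507957 on the minus strand, Pgam1 at chr19:41911923-41918660 on the plus strand, and Pgam2 at chr11:5801640-5803733 on the minus strand. Aldoa (chr7:126795234-126800751) and Hk1 (chr10:62268855-62379908) lie on the minus strand as well. All 9 genes matched a RefSeq promoter window (GRCm38.p6; 250 bases before to 50 after the start), in 16 windows. The sequences before the starts of Ldhc, Ldha and Pgam2 are shown because these were the 3 genes that rose to the last stage. Capitals mark a match to AACNGTT, the core motif of MYB factors such as the meiotic regulator MYBL1, or to TGACGTCA, the cyclic AMP response element (CRE) of factors such as CREM. For Ldhc, the first sequence (chr7:46861013-46861202) ends where the GENCODE exon begins. The second (chr7:46861236-46861262) is the stretch just before the RefSeq start that holds both of its MYB motifs. It lies after the GENCODE start at chr7:46861203, so it is upstream by the RefSeq start only. The Ldha window is chr7:46845554-46845803 and the Pgam2 window, on the minus strand, is chr11:5803797-5804046.
Ldhc, upstream of the exon: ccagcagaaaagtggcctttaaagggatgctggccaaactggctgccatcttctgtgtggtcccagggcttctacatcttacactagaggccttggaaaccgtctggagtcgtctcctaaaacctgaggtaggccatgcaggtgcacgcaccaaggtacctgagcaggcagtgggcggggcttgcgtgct
Ldhc, MYB stretch: AACTGTTggctcctggacccAACAGTT
Ldha, upstream: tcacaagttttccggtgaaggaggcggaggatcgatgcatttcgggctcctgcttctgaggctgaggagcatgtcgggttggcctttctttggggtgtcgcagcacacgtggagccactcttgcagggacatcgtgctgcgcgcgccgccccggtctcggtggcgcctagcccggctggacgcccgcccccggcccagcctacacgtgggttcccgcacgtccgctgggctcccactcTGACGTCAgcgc
Pgam2, upstream: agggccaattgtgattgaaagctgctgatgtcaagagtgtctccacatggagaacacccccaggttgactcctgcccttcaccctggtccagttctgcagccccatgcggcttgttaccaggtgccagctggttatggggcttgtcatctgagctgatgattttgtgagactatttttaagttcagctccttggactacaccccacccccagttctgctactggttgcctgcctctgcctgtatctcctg

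The Ldhc window held 2 matches to AACNGTT, beginning 27 and 7 bases before the RefSeq start and after the GENCODE start. Of all 32851 RefSeq windows, 4.45% held at least 1 such match and 0.16% held 2 or more, both strands being searched. The Pgam2 window held 1 match, which began at base 42 after the start and is not printed. The Ldha window shown held no AACNGTT and 1 full TGACGTCA, which began 12 bases before the start; 1.79% of all windows held that motif. The window of a second Ldhc start holds the later match of the same pair, and none of the windows of Ldhb, Pgam1, Gapdh, Aldoa, Hk1 and Eno1 held either motif. The half-site TGACG, which the full CRE contains and which 20.81% of all windows held, occurred at 61 and 47 bases before the RefSeq start of Ldhc. A match describes letters only, and no match says nothing about a factor.

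The first question was which isozymes the cells carried at the start and at the end of the order. Between stage 1 and stage 12, Ldhc, Ldha and Pgam2 rose, and Pgam1, Gapdh, Ldhb, Aldoa and Eno1 fell, while Hk1 did not pass the test. A gene was called when edgeR's quasi-likelihood test, with mouse in the model, gave a Benjamini-Hochberg adjusted p below 0.05 over the 12206 genes tested. By this rule 3 of the 9 genes were higher and 5 were lower. The call of Eno1, among the 5, rests on mouse 1, as described below. The cells of the first and last stage differ in most of what they express: 74.8% of all genes tested were called, 36.9% higher and 37.9% lower, so the number called among the 9 is close to the background and only the sizes and their order in time are described. Fitted changes use TMM scaling, which differs from the CPM scale, so that a small change can differ in sign between them.

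Ldhc was at 72.7, 84.5 and 260.0 CPM at stage 1 in mice 1, 2 and 3, and at 1887, 3815 and 4464 CPM at stage 12. The groups did not overlap, as for 66.9% of all genes tested, and mouse 3 was highest at both ends. The log2 change was 5.18 ± 0.25 (SE; adjusted p = 6.4e-21, edgeR), and 1.84% of all genes tested rose by more.

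Ldha, the somatic subunit, rose as well. It was at 83.95, 129.6 and 215.1 CPM at stage 1 and at 986.7, 1465 and 1780.0 CPM at stage 12, with the mice in the same order at both ends. The log2 change was 3.85 ± 0.22 (SE; adjusted p = 1.34e-18, edgeR). The somatic and the germ-cell subunit genes thus rose in the same cells and in all 3 mice.

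Ldhb was scarce throughout, with 109 UMIs in all kept cells of the 3 mice. It was at 17.5, 14.1 and 11.5 CPM at stage 1 and at 0, 1.02 and 0.482 CPM at stage 12, from 31 and 3 UMIs summed over the mice. The ratio of stage 1 to stage 12 from these sums was 44.0 (95% exact binomial interval 13.7 to 225, for counting error only), and the fitted log2 change was -4.68 ± 0.85 (SE; adjusted p = 6.33e-06, edgeR). Summed markers of Sertoli cells were at 284.4 to 318.3 CPM at stage 1 and at 13.3 to 21.5 CPM at stage 12. The sum did not follow Ldhb at all stages: at stage 7 it was 336.6 to 556.3 CPM, with Ldhb at 3.32, 0 and 4.11 CPM. The 15 stage 1 cells with Ldhb held a median of 8 such UMIs against 5 in the other cells, which were not matched for depth. The part of these markers' cells in the Ldhb level was not tested.

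Pgam2 rose by the most of the 9 genes, from 5.01, 2.82 and 17.2 CPM at stage 1 to 319.4, 426.9 and 432.2 CPM at stage 12. Its log2 change was 5.87 ± 0.26 (SE; adjusted p = 8.8e-22, edgeR), and 0.72% of all genes rose by more. Pgam1, which catalyses the same step, fell from 506.2, 523.9 and 703.5 CPM to 34.2, 36.8 and 47.3 CPM. Its log2 change was -3.40 ± 0.20 (SE; adjusted p = 1.05e-18, edgeR). The pair crossed in every mouse: at stage 1 each mouse had far more Pgam1 than Pgam2, and at stage 12 each had far more Pgam2 than Pgam1.

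Aldoa fell from 189.2, 250.7 and 265.7 CPM to 71.2, 74.55 and 93.3 CPM, with groups that did not overlap (log2 change -1.09 ± 0.20 (SE), adjusted p = 5.79e-06, edgeR). This fall is relative to the other genes: per spike-in UMI the change was 0.19 ± 0.23 (SE; adjusted p = 0.437, edgeR). Without mouse in the model, and in the deposited reads, the log2 change was nearly the same (-1.08 and -1.09) and did not pass (adjusted p = 0.0623 and 0.0556, edgeR). The RNA content of the cells, as UMIs per spike-in UMI, was 1.69 ± 0.35 log2 units (SD, n = 3) higher at stage 12 than at stage 1 and 1.82 ± 0.31 lower at stage 5. With spike-in scaling the median log2 change of all genes was 1.28 in place of -0.03, and 7388 genes were called higher and 2541 lower.

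Hk1 was at 94.0, 84.5 and 91.8 CPM at stage 1 and at 47.85, 79.7 and 90.7 CPM at stage 12. The groups overlapped. The CPM was lower at stage 12 in 3 of 3 mice, while the fitted log2 change, on the TMM scale, was 0.07 ± 0.23 (SE; adjusted p = 0.782, edgeR). Its sign turned with the settings, from -0.41 without mouse 3 to 0.53 without mouse 1 (adjusted p = 0.21 and 0.0421, edgeR), and per spike-in UMI Hk1 rose by 1.36 ± 0.26 (SE; adjusted p = 4.6e-06, edgeR). Counts of 3′ ends do not separate the somatic and spermatogenic transcripts of Hk1.

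**Figure D1:**
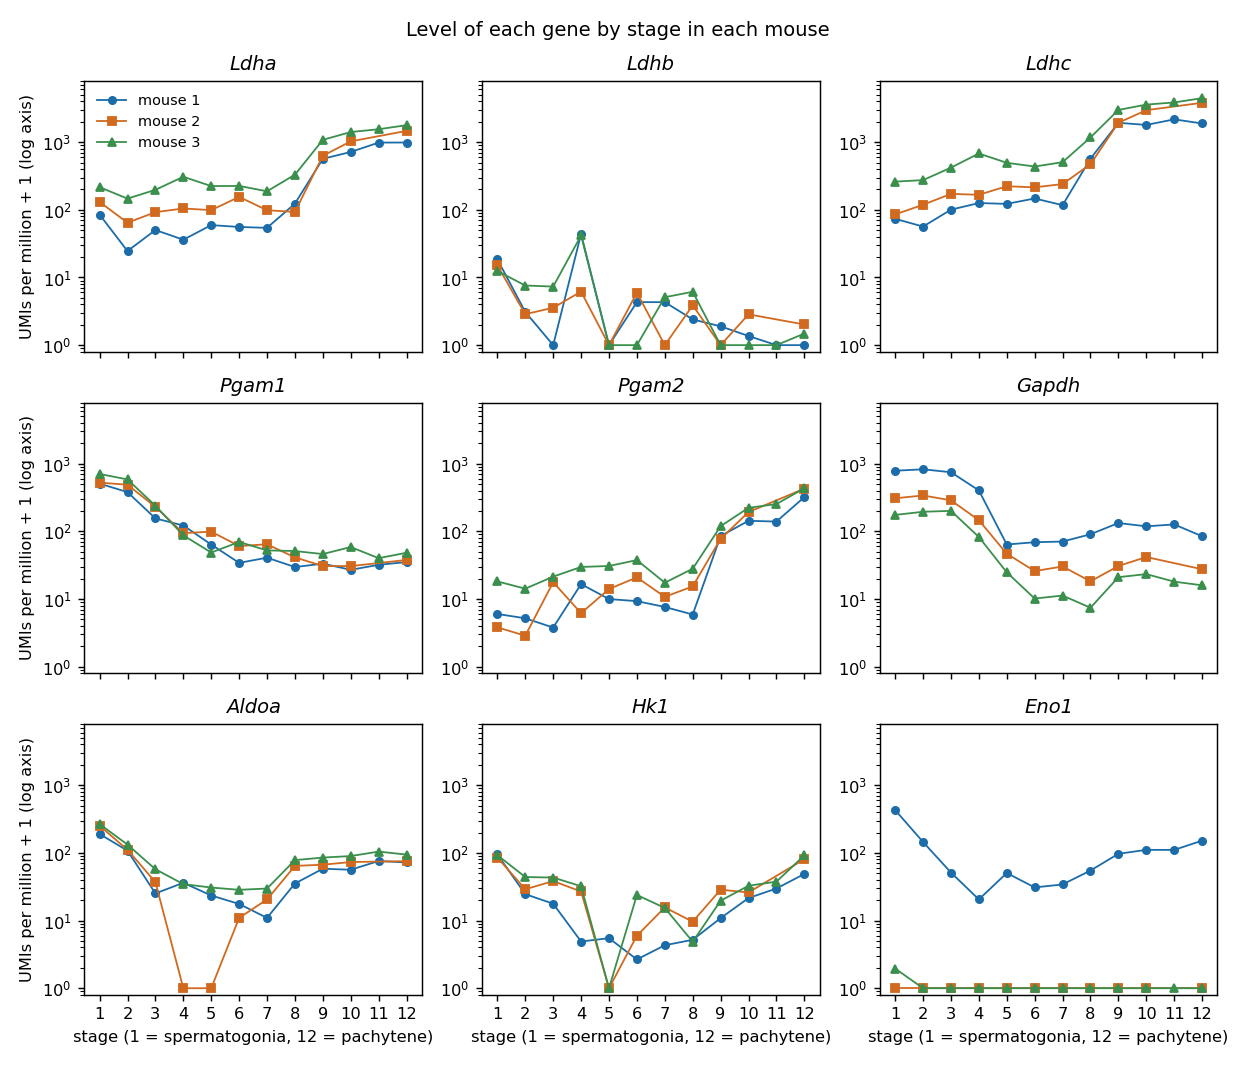
Level of each of the 9 genes (CPM plus 1, log axis) over the 12 stages, one line per mouse (stage 11 has 2 mice). Ldha, Ldhc and Pgam2 are higher at each of stages 9 to 12 than at any of stages 1 to 8 in all 3 mice, Pgam1 and Gapdh fall by stage 5, Hk1 and Aldoa dip in the middle stages, and Eno1 stays at or next to 0 in mice 2 and 3.

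The second question was when each change came. Against stage 1, 79 of the 99 tests of the 9 genes passed: 5 at stage 2, 6 at each of stages 3, 4, 6 and 7, 7 at stage 5, 8 at stages 8 and 12, and 9 at each of stages 9, 10 and 11. The share of all genes called grew along the same order, with 26.9%, 40.8% and 48.1% called in stages 2, 3 and 4, 51.4%, 54.2% and 55.5% in stages 5, 6 and 7, and 65.6%, 69.8%, 72.8% and 71.0% in stages 8, 9, 10 and 11. Between neighbouring stages, 27 of 99 tests passed: 5 at the step to stage 2, 4 at the step to stage 3 (22.3% of all genes), 4 at the step to stage 4 (32.1%), 3 at the step to stage 5 (9.23%), 3 at the step to stage 8 (21.7%), 5 at the step to stage 9 (18.2%), 1 at the step to stage 10 (1.61%) and 2 at the step to stage 12 (6.78%). None passed at the steps to stages 6, 7 and 11, where 16.3%, 6.18% and 0.492% of all genes did. The 79 and 27 include Eno1, called at every stage against stage 1 and at the steps to stages 2, 3 and 4. Its UMIs came almost only from mouse 1, so these calls have no replicate check. Without mouse in the model, 51 and 6 of the 99 tests passed in place of 79 and 27. The test over all 12 stages called all 9 genes and 94.5% of all genes.

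Ldhc rose mainly at the steps to stages 8 and 9. In spermatogonia-like cells it was at 139 ± 105, 149 ± 112 and 229.8 ± 168 CPM (stages 1, 2 and 3; SD, n = 3). From stage 4 through stage 7 the means lay between 265 ± 151 and 323.1 ± 309 CPM. Ldhc then reached 737.6 ± 380 CPM in stage 8 and 2284 ± 611 CPM in stage 9. The last stages gave 2783 ± 910 (stage 10, n = 3), 3015 ± 1195 (stage 11, n = 2) and 3388 ± 1341 CPM (stage 12, n = 3). The steps to stage 8 (log2 change 1.57 ± 0.23 (SE), adjusted p = 2.38e-06, edgeR) and to stage 9 (1.76 ± 0.21, adjusted p = 2.75e-08) passed, and the 3 steps after them did not. The step to stage 3 was small (0.65 ± 0.23, adjusted p = 0.0334, edgeR) and did not pass without mouse 2 or without mouse 3 (adjusted p = 0.121 and 0.0636). The higher level at stages 3 to 7 was relative to other genes, in cells whose RNA content was below that of stage 1: against stage 1 the log2 change lay between 0.71 and 1.15 there, and per spike-in UMI between -0.75 and -0.23. Per spike-in UMI Ldhc was called below stage 1 at stage 5 (-0.75, adjusted p = 0.0141, edgeR) and stage 6 (-0.65, adjusted p = 0.0325). The call at stage 3 was also lost without mouse 2 (adjusted p = 0.099, edgeR) and that at stage 4 without mouse 3 (adjusted p = 0.0616).

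Ldha rose at the same steps, for the most part at the step to stage 9. Before stage 8 the means lay between 77.5 ± 62.1 CPM (stage 2) and 148.6 ± 141 CPM (stage 4; SD, n = 3). Ldha was at 181.2 ± 129 CPM in stage 8 and at 757.6 ± 281 CPM in stage 9. The last stages gave 1051 ± 348 (stage 10, n = 3), 1267 ± 401 (stage 11, n = 2) and 1410 ± 399 CPM (stage 12, n = 3). Ldha fell at the step to stage 2 (log2 change -1.0 ± 0.24 (SE), adjusted p = 0.00156, edgeR) and rose at the steps to stage 8 (0.83 ± 0.26, adjusted p = 0.0165) and stage 9 (2.17 ± 0.21, adjusted p = 3.76e-10). The other 8 steps did not pass, so neighbouring stages from 3 to 7, and from 9 to 12, were not told apart by the test. The step to stage 8 did not pass without mouse 2 or without mouse 3 (log2 change 0.96 and 0.80, adjusted p = 0.068 and 0.134, edgeR), and in mouse 2 the level was 97.6 CPM before it and 92.0 CPM after it. The level at stage 8 was not called above that at stage 1 per spike-in UMI (log2 change 0.45, adjusted p = 0.154, edgeR) or without mouse 3 (0.38, adjusted p = 0.244).

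The low levels of the 3 rising genes before stage 8 were set against the pachytene markers in the same sums. Free RNA can give UMIs in cells that do not express a gene, and its part was not tested. In the 21 sums of stages 1 to 7, Ldhc was at 2.215% to 15.2% of its level at stage 12 of the same mouse, Ldha at 2.39% to 17.25% and Pgam2 at 0.438% to 8.48%. Ldhc lay below the median of the 14 to 16 pachytene markers in 20 of these sums, Ldha in 19 and Pgam2 in 21. At stage 1 that median was 7.19%, 8.085% and 13.2% in mice 1 to 3, beside 3.85%, 2.215% and 5.82% for Ldhc and 8.51%, 8.85% and 12.1% for Ldha. The sums in which Ldha lay above the median were those of stage 1 in mice 1 and 2. Single markers varied: at stage 1 the highest stood at 59.8%, 33.1% and 42.5% of its stage 12 level in mice 1 to 3. At stage 5 the highest stood at 296.1%, 324.7% and 290.2%. The median thus takes in markers that were already high, and it is not a background level. Levels at or below that median at stages 1 to 7 are read neither as expression nor as its absence.

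**Figure D2:**
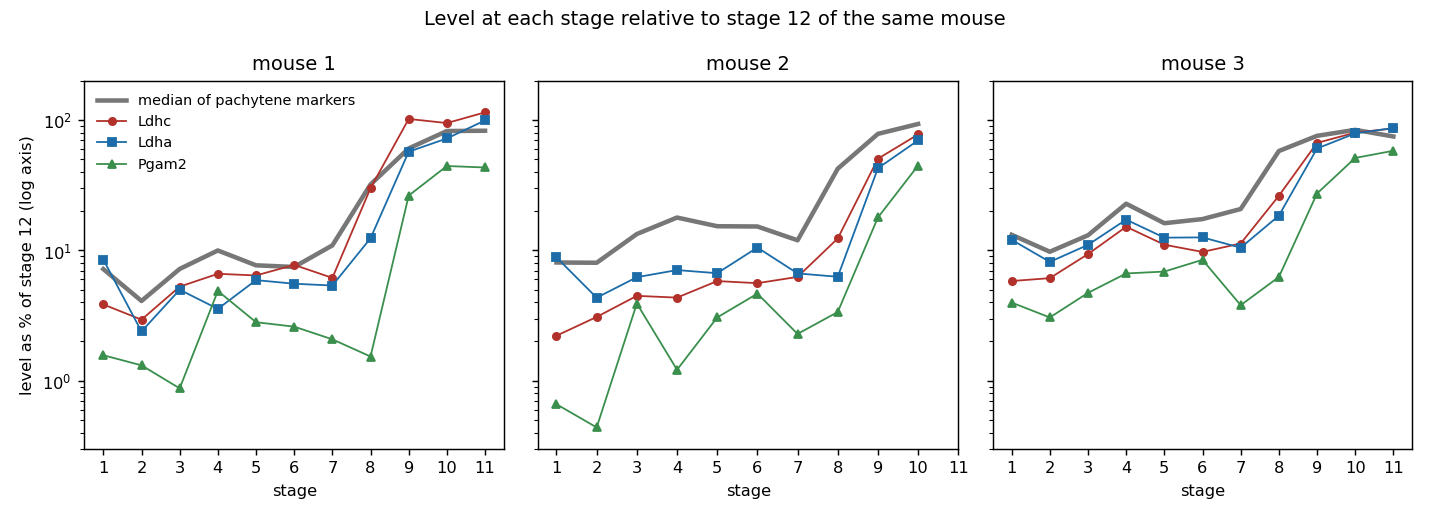
Level of Ldhc, Ldha and Pgam2 at stages 1 to 11 as a percent of the level at stage 12 of the same mouse (log axis), one panel per mouse, with the median of the pachytene markers as a grey line. Before stage 8 the 3 genes sit mostly at or under the grey line.

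Pgam2 stayed between 6.43 ± 5.997 and 21.6 ± 14.2 CPM (SD, n = 3) from stage 1 to stage 8 and was not called at any of these stages. It then rose at the steps to stage 9 (93.0 ± 22.2 CPM; log2 change 2.87 ± 0.27 (SE), adjusted p = 3.2e-10, edgeR), stage 10 (185.3 ± 40.3 CPM; 1.05 ± 0.18, adjusted p = 0.000316) and stage 12 (392.8 ± 63.65 CPM; 1.23 ± 0.19, adjusted p = 3.19e-05). The step to stage 10 did not pass without mouse 2 (log2 change 0.86, adjusted p = 0.128, edgeR), and neither later step passed in the deposited reads (1.07 and 1.33, adjusted p = 0.702 and 0.423).

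The genes that fell did so well before. Pgam1 went from 577.8 ± 109 CPM at stage 1 and 483.7 ± 103 at stage 2 to 207.1 ± 45.9 at stage 3 and 100.2 ± 18.3 at stage 4 (SD, n = 3). The steps to stage 3 (log2 change -1.24 ± 0.18 (SE), adjusted p = 1.83e-06, edgeR) and stage 4 (-1.11 ± 0.24, adjusted p = 0.000352) passed, and from stage 8 on the mean level lay between 35.1 and 39.7 CPM. Gapdh was not called at stages 2 and 3 and then fell at the steps to stage 4 (-1.09 ± 0.17, adjusted p = 3.53e-06) and stage 5 (-2.26 ± 0.27, adjusted p = 3.66e-07), with a small rise at stage 9 (0.67 ± 0.21, adjusted p = 0.0217) that did not pass without mouse 2 or without mouse 3 (adjusted p = 0.115 and 0.181).

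Aldoa and Hk1 dipped and came back. Aldoa fell at the steps to stage 2 (log2 change -0.92 ± 0.20 (SE), adjusted p = 0.000618, edgeR) and stage 3 (-1.66 ± 0.23, adjusted p = 1.47e-06), lay between 17.4 and 22.9 CPM on average at stages 4 to 7, and rose at stage 8 (1.54 ± 0.39, adjusted p = 0.00362; without mouse 3 1.68, adjusted p = 0.0765). Hk1 fell at stage 2 (-1.49 ± 0.26, adjusted p = 3.21e-05) and again at stage 5, where 1 UMI was found in the 93 cells of 3 mice. It rose at stage 9 (1.79 ± 0.48, adjusted p = 0.00577) and at stage 12 (1.24 ± 0.27, adjusted p = 0.00322). Without mouse 3 none of its steps to stages 5, 9 and 12 passed (adjusted p = 0.442, 0.115 and 0.348, edgeR), and without mouse 2 those to stages 5 and 9 did not (0.149 and 0.0545). Hk1 was called below stage 1 at each of stages 2 to 11 and was not called at stage 12. Per spike-in UMI it was no longer called at stages 10 and 11 (log2 change -0.42 and -0.27, adjusted p = 0.157 and 0.461, edgeR), and Aldoa likewise (-0.30 and -0.26, adjusted p = 0.231 and 0.386).

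The third question was the balance within each isozyme pair. The share of Ldhc among Ldha, Ldhb and Ldhc UMIs was 44.1% ± 8.45 at stage 1 (SD, n = 3), 65.65% ± 2.37 at stage 2 and 70.3% ± 2.70 at stage 7. The mean was highest in stage 8, with 81.1% ± 2.86, and then 75.4% ± 1.92 (stage 9), 72.5% ± 1.52 (stage 10) and 69.8% ± 3.60 (stage 12). From stage 1 to stage 12 it gained 23.9, 35.2 and 18.05 percentage points in mice 1 to 3, a mean of 25.7 ± 8.72 (SD; exact permutation test of the stages within mice, two-sided, p = 0.00158, with 1e-06 the smallest p possible). Of these shares 3 were tested; the Benjamini-Hochberg adjusted p was 0.00237. With Ldhal6b, a testis gene related to lactate dehydrogenase, and Ldhd added to the denominator the gain was 18.4 ± 7.2 points (exact permutation p = 0.00304).

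The share of Ldhc among Ldha and Ldhc alone was set beside that in wells that held under 1000 UMIs, which no stage contains. In these wells it was 64.0% (95% Clopper-Pearson interval 56.9 to 70.65; 200 UMIs), 73.9% (61.9 to 83.75; 69 UMIs) and 67.5% (58.5 to 75.5; 126 UMIs) in mice 1 to 3. In the summed cells of stages 2 to 7 it was 70.0% (66.1 to 73.8), 64.95% (60.8 to 69.0) and 68.1% (66.3 to 69.9). The share was 46.4% (37.4 to 55.5), 39.5% (28.4 to 51.35) and 54.7% (50.2 to 59.2) at stage 1, 82.3%, 83.7% and 78.1% at stage 8, and 65.7% (64.8 to 66.5), 72.3% (71.0 to 73.5) and 71.5% (70.9 to 72.0) at stage 12. The intervals of the low wells overlapped those of stages 2 to 7 and of stage 12 in each mouse, and that of stage 1 in mouse 3 but not in mice 1 and 2. They cover counting error only.

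The Pgam2 share of Pgam1 and Pgam2 UMIs went from 1.30% ± 0.967 (stage 1) to 25.3% ± 10.25 (stage 8), then to 72.2% ± 0.196 (stage 9) and 90.85% ± 1.06 (stage 12; SD, n = 3). The gain was 89.35, 91.5 and 87.75 points in mice 1 to 3 (exact permutation test within mice, two-sided, p = 7.3e-06, adjusted p over the 3 shares 2.19e-05). For this pair, unlike Ldha and Ldhc, one gene rose while the other fell. The Ldhb share of Ldha and Ldhb UMIs fell in every mouse, by a mean of 10.7 ± 6.18 points, which did not pass the same exact permutation test (p = 0.165, adjusted p = 0.165).

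**Figure D3:**
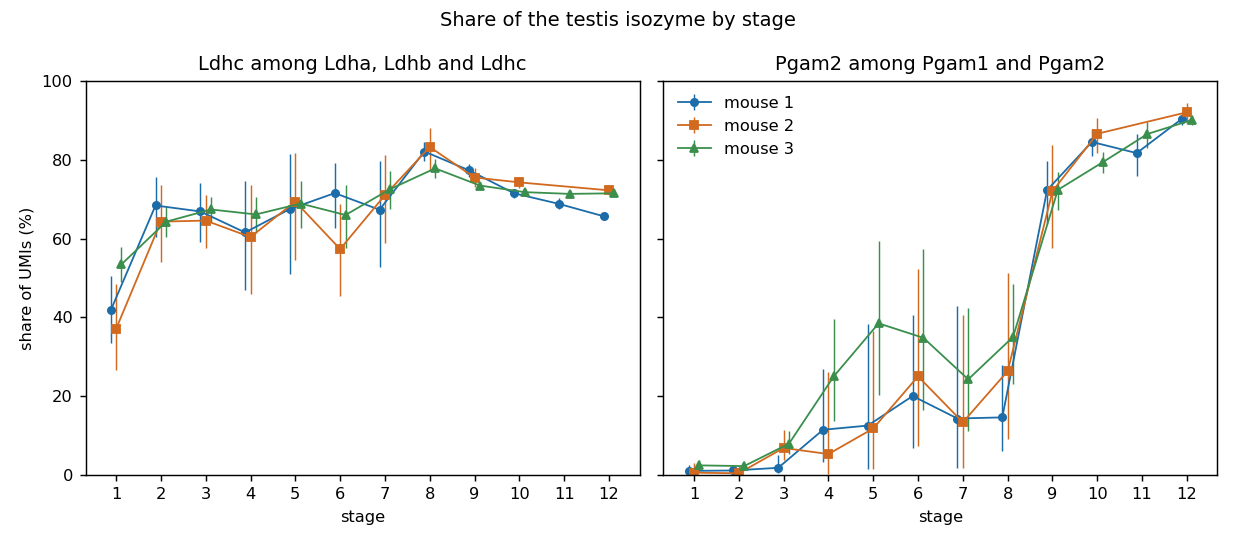
Share of Ldhc among Ldha, Ldhb and Ldhc UMIs (left) and of Pgam2 among Pgam1 and Pgam2 UMIs (right) by stage, one line per mouse, with 95% exact binomial bars for counting error only. The Ldhc share peaks at stage 8 in the means (81.1%) and ends at 69.8%; the Pgam2 share jumps to 72.2% at stage 9 and ends at 90.85%.

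Single cells showed the same order. After each cell was thinned to 3000 UMIs, which left out 55 shallower cells, a Ldhc UMI was found in 33.3% of 72 cells (stage 1), 82.1% of 95 cells (stage 8), 98.7% of 77 cells (stage 9) and 100% of 92 cells (stage 12). Ldha was found in 29.2%, 35.8%, 84.4% and 98.9% of the same cells. These shares pool the mice. In mice 1 to 3, Ldha was found in 20.8%, 40.0% and 30.3% at stage 1 and in 22.9%, 29.4% and 60.0% at stage 8. It was thus lower at stage 8 in mouse 2. Without thinning, the shares at stages 1 and 12 were 93.15% and 100% for Ldhc and 91.8% and 100% for Ldha, at a median of 26991 and 95103 UMIs per cell. Pgam1 went from 83.3% of thinned cells at stage 1 to 7.61% at stage 12 (98.6% and 89.25% unthinned) and Pgam2 from 1.39% to 64.1% (23.3% and 98.9% unthinned). At stage 12, 91 of 92 thinned cells held both Ldha and Ldhc UMIs.

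Ldhb stood out at stage 4. It was at 42.9, 5.18 and 40.8 CPM there in mice 1 to 3, against 0, 2.57 and 6.34 CPM at stage 3 and 0 UMIs in all 3 mice at stage 5. The step to stage 4 passed (log2 change 3.27 ± 0.73 (SE), adjusted p = 0.000601, edgeR) and rests on 29 UMIs in 14 of 79 cells; in the deposited reads it did not pass (3.32, adjusted p = 0.129, edgeR). Markers of Sertoli cells, the nurse cells of the testis, were high there as well: their summed level was 362.5 to 981.1 CPM at stage 4, against 133 to 262.6 CPM at stage 3 and 215.6 to 359.2 CPM at stage 5, with 6 or 7 of 8 markers above 0 at stage 4 and Amh at 0 in all 3 mice. At stages 6 and 7 the markers stood at 336.6 to 556.3 CPM while Ldhb was at 2.77 ± 2.53 and 2.48 ± 2.18 CPM (SD, n = 3). At stage 5 most of the summed level was Ctsl, with 202.1, 280.8 and 279.7 CPM in mice 1 to 3. Clu, Cldn11 and Defb19 were higher at stage 4 than at stages 3 and 5 in all 3 mice. Ctsl, Sox9, Wt1 and Rhox5 were so in mice 1 and 3 only. Clu was at 300.5, 124.3 and 431.8 CPM at stage 4, and at 8.98, 52.25 and 17.9 CPM at stage 5. Levels of single markers are not given for stages 6 and 7. The stage 4 cells with Ldhb held a median of 10.5 Sertoli marker UMIs and those without held 2, with no matching for depth. The markers of 5 other cell types stayed between 0 and 27.3 CPM in all 35 sums. Whether Sertoli cell RNA gave the Ldhb UMIs was not tested.

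Gapdh and Eno1 need a separate account, because near-identical copies of both genes lie elsewhere in the genome. Gapdh (chr6:125161715-125166467, minus strand) had 215 annotated genes that match one of its 3′ ends over at least 200 bases at 90% identity or more. Of these, 207 were pseudogenes. Of the 215, 10 had a row of their own, at 90.1% to 100% identity. Among the 10, Peli2, Gm5069 and 3000002C10Rik matched through a processed transcript and are not annotated as pseudogenes. The largest of the 10 rows, the processed pseudogene Gm12070 on chromosome 11, is identical over all 500 bases compared. It held 3751, 25 and 62 UMIs in mice 1 to 3, where Gapdh held 4471, 675 and 1043. In mouse 1 the copy's row was thus nearly as large as that of the gene, and in mice 2 and 3 it was not.

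Gapdh alone was at 785.6, 307 and 174 CPM at stage 1 and at 83.7, 26.55 and 14.95 CPM at stage 12, a log2 change of -3.00 ± 0.17 (SE; adjusted p = 4.37e-19, edgeR). Summed with 9 copy rows it was at 1690, 326.7 and 213.1 CPM and at 223.9, 76.6 and 68.25 CPM, a log2 change of -1.76 ± 0.22 (SE; adjusted p = 3.2e-09, edgeR). The row of Peli2 was left out of that sum. Gapdh was lower at stage 12 in every mouse both ways, and the size of the difference depends on how its copies are counted. At stage 1 the gene's own row held 627 of 1349, 109 of 116 and 182 of 223 summed UMIs in mice 1 to 3. At stage 12 it held 355 of 950, 26 of 75 and 62 of 283. The copy rows thus held most of the stage 12 sum in every mouse, and most of the stage 1 sum in mouse 1 only.

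Eno1 (chr4:150236721-150248879, plus strand) had UMIs in mouse 1 only, 2019 against 0 and 1 in mice 2 and 3. Its near-copy Gm5506 (Eno1b, 99.4% identical over 500 bases), which has 2 rows, held 2054 and 2014 UMIs in mouse 1 and 0 to 25 in the others. Of 9088 genes with at least 200 UMIs in mouse 1, 120 had under 5 UMIs in mice 2 and 3 together, so Eno1 is not alone in this. In mouse 1 Eno1 went from 428.5 CPM at stage 1 to 19.5 CPM at stage 4 and 150.9 CPM at stage 12. The fitted log2 change of -1.35 ± 0.25 (SE; adjusted p = 1.34e-05, edgeR) rests on that mouse, has no replicate check, and is 0.04 per spike-in UMI. For the other genes, copies with a row held few UMIs. Ldha had 18 pseudogene copies, of which 1 had a row, with 83 UMIs beside 30615 for Ldha. Aldoa had 9 copies, of which 2 had rows (Aldoart1 and Aldoart2), with 192 UMIs beside 3243. Ldhb had 1 copy, which had no row, and Ldhc, Pgam1, Pgam2 and Hk1 had no copy. Reads that match copies without a row could not be traced.

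**Figure D4:**
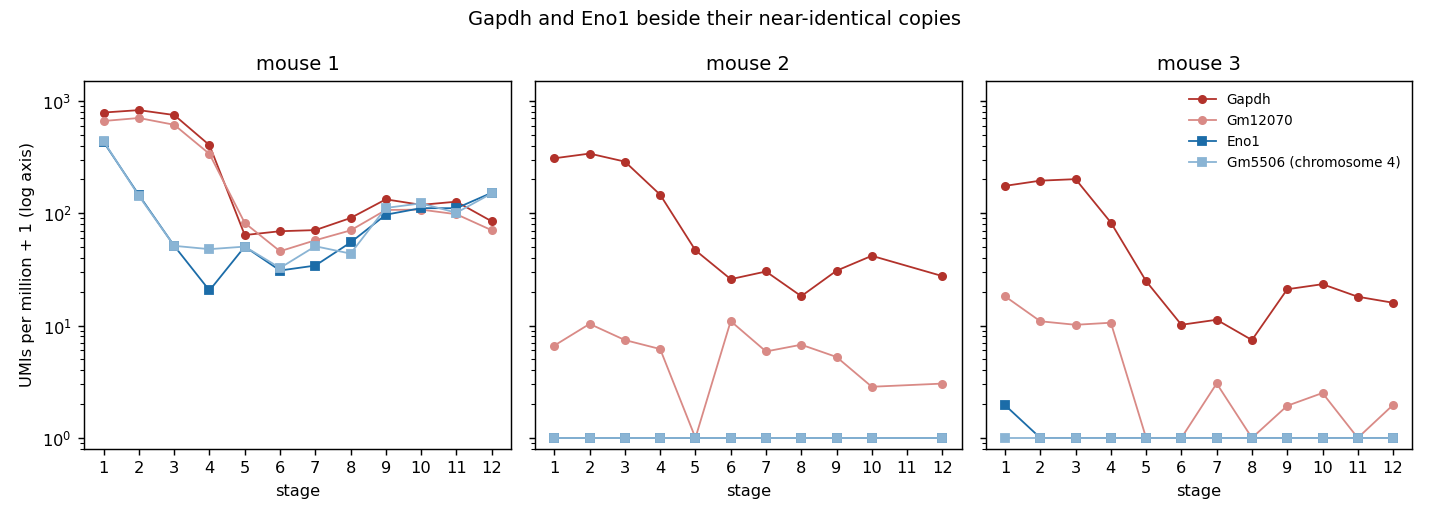
Levels (CPM plus 1, log axis) of Gapdh, its copy Gm12070, Eno1 and its copy Gm5506 (chromosome 4 row) by stage, one panel per mouse. In mouse 1 each copy runs beside its gene; in mice 2 and 3 Gm12070 lies far under Gapdh and Eno1 lies at or next to 0.

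The rest of the pathway was read from a list of 26 further glycolysis genes, of which 25 had a row under their symbol and 16 had enough counts to be tested. Between stage 1 and stage 12, 10 were higher and 6 were lower, where 36.9% and 37.9% of all genes were. The median log2 change was 2.60 against -0.03 over all genes tested; it was 0.44 over the 25 genes without a filter on low counts and 1.31 with stage 10 as the latest stage, a choice made after seeing the data. Eno2 had no UMI at stage 1, so its fitted change is no bound; from the sums it was at least 2.11-fold higher at stage 12, and with that bound the median was 2.26. The genes that rose include testis forms: Pgk2, the autosomal phosphoglycerate kinase (1.895 ± 1.64 to 52.45 ± 9.90 CPM, log2 change 5.29 ± 0.57 (SE), adjusted p = 6.88e-11, edgeR), Ldhal6b (39.55 ± 28.2 to 1017 ± 212 CPM, 5.19 ± 0.22, adjusted p = 3.3e-22), the sperm enolase Eno4 (3.02 ± 0.28, adjusted p = 1.23e-12) and Gapdhs, the sperm form of Gapdh, which was still scarce at stage 12 (6.84 ± 6.62 CPM). Gapdhs had 2 UMIs at stage 1 and 40 at stage 12, a ratio of 4.70 from the sums (95% exact binomial interval 1.22 to 40.1). Its groups at the 2 stages overlapped, and it did not rise steadily. The mean was 9.98 ± 8.66 CPM at stage 4 (SD, n = 3), 0.805 ± 1.40 at stage 10 (n = 3) and 0.316 ± 0.446 at stage 11 (n = 2). The genes called higher also include some that other tissues use, such as triosephosphate isomerase Tpi1 (24.5 ± 11.9 to 214.8 ± 45.3 CPM, log2 change 3.67 ± 0.25) and the muscle enolase Eno3 (32.3 ± 10.7 to 234.5 ± 39.7 CPM, 3.39 ± 0.17).

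The 6 that fell were Hk2, Adpgk, Gpi1, Aldoc, Pgk1 and Pkm. Pkm, the pyruvate kinase of most tissues, went from 690.7 ± 244 to 29.3 ± 9.49 CPM (SD, n = 3; log2 change -4.14 ± 0.17 (SE), adjusted p = 9.45e-23, edgeR). Gpi1, glucose-6-phosphate isomerase, went from 546.6 ± 34.3 to 43.0 ± 30.4 CPM (-3.53 ± 0.27, adjusted p = 4.96e-15). Pgk1 is X-linked and went from 28.65 ± 10.35 to 3.64 ± 0.59 CPM (-2.29 ± 0.35, adjusted p = 1.99e-07), over stages in which X-linked UMIs fell as a whole.

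The list of 27 genes for fuel uptake and pyruvate use had 23 tested members, of which 15 were higher, 7 were lower and Tigar was not called (log2 change -0.49 ± 0.27 (SE), adjusted p = 0.0926, edgeR; per spike-in UMI 0.82, adjusted p = 0.0115). Of all genes, 36.9% were higher and 37.9% lower. The median log2 change of the list was 1.12, against -0.03 over all genes. Members of one family went opposite ways. Among sugar transporters, Slc2a3 rose from 144.2 ± 84.9 to 2290 ± 857 CPM (SD, n = 3; log2 change 4.57 ± 0.20 (SE), adjusted p = 6.27e-22, edgeR) and the fructose transporter Slc2a5 rose by 5.02 ± 0.31, while Slc2a1 fell from 43.7 ± 3.13 to 0.816 ± 0.291 CPM (-5.23 ± 0.51, adjusted p = 4.19e-12).

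Among carriers of lactate and pyruvate across the cell membrane, Slc16a7 rose from 7.27 ± 4.56 to 93.3 ± 6.74 CPM (SD, n = 3; log2 change 4.07 ± 0.33 (SE), adjusted p = 2.68e-14, edgeR) and Slc16a1 fell from 56.8 ± 11.95 to 8.12 ± 3.88 CPM (-2.14 ± 0.25, adjusted p = 8.31e-10). Bsg, which encodes basigin, the usual partner of the Slc16a1 carrier, rose by 1.91 ± 0.12 (adjusted p = 3.79e-17). Emb, which encodes embigin, the preferred partner of the Slc16a7 carrier, fell, with a log2 change of -4.32 ± 0.62 (adjusted p = 5.96e-08). For the E1 alpha subunit of pyruvate dehydrogenase, the autosomal Pdha2 rose from 45.3 ± 7.21 to 508.5 ± 41.6 CPM (3.94 ± 0.17, adjusted p = 2.69e-22), and the X-linked Pdha1 fell from 173 UMIs to 3 (a ratio of 245.6 from the sums, 95% exact binomial interval 82.7 to 1203). Pdha1 was at 79.2 ± 5.81, 17.1 ± 9.71 and 8.68 ± 2.51 CPM at stages 1, 2 and 3 (SD, n = 3). X-linked UMIs stood at 2.51, 2.43 and 2.71 per 100 autosomal UMIs at these stages. The other subunits of the complex, Pdhb, Dlat, Dld and Pdhx, rose by 1.65 ± 0.17, 2.21 ± 0.16, 1.70 ± 0.17 and 1.12 ± 0.18 on the log2 scale. Of the kinases that switch the complex off, Pdk2 rose by 4.06 ± 0.36. The autosomal Pdk1 and the X-linked Pdk3 fell, with log2 changes of -4.67 ± 0.45 and -5.22 ± 0.37.

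**Figure D5:**
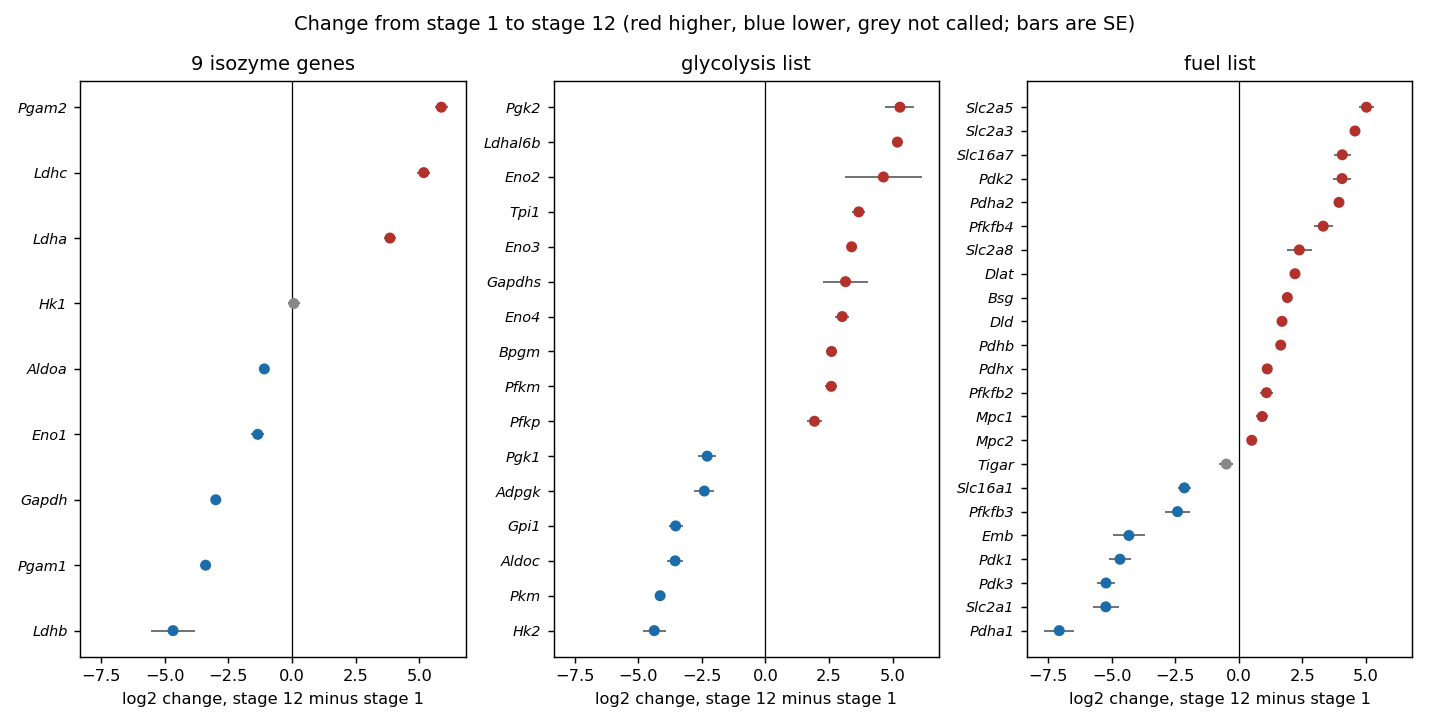
Log2 change from stage 1 to stage 12 (edgeR, bars are SE) of the 9 genes, the 16 tested glycolysis genes and the 23 tested fuel genes; red is higher, blue lower and grey not called. In each panel genes lie on both sides of 0, and the fitted point of Eno2, with no UMI at stage 1, is no bound.

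The genes whose course was most like that of a lactate dehydrogenase gene were ranked by the lowest of 3 within-mouse correlations over the stages, among 7873 or 7874 genes that reached 50 CPM in some stage. For Ldhc these were Ldhal6b (lowest r = 0.993), 4922502D21Rik (0.987), Cdc42ep3 (0.984), Slc2a3 (0.983) and Piwil1 (0.980). For Ldha they were Spink2 (0.970), Ccdc65 (0.966), Cetn1 (0.966), 4922502D21Rik (0.965) and Odf4 (0.962). For Ldhb, with its few UMIs, the values were lower, from 0.788 for Cited2 to 0.648 for Map3k5. The points of each correlation share their sums and depth, and the values are a description with no test.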

How the data were processed

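The deposited counts are whole-number UMI counts per gene and well as the values show; the submitters' processing notes name BWA 0.7.10 and the build mm10. The deposited table of reads holds counts of reads, and the deposited table of transcripts holds estimated counts, which were rounded to whole numbers. Of the 768 wells of mouse 1, 2 stood at the same position there as among the UMI counts. These wells were paired one to one by their profiles (lowest correlation 0.973), so that run is not independent of the UMI counts. The counting of reads that match several genes is not given in the sources used here. Wells with at least 1000 UMIs were kept. Variable genes (1500) were aligned between mice with Seurat 5.3.0, clustered and ordered with scanpy 1.11.5 (Leiden resolution 1, 15 neighbours). Well barcodes are a fixed set used in every library. Doublets were not called; wells were sorted singly. Clusters were named from fixed markers, of which at least 3 had to be detected; 3 clusters of low depth (218 cells) and 11 elongating spermatid-like cells were left out. Counts were summed per mouse and stage (at least 10 cells) and fitted over all genes with edgeR 4.0.16, TMM scaling, filterByExpr and mouse as a block; SEs were taken from the F statistic. The block follows from the design, since sums of the same number come from the same animal; their deviations from the stage means had a median correlation of 0.82, 0.52 and 0.68 in mice 1 to 3. Counts were simulated for stage 12 against stage 1 (10693 genes), with 90 genes changed by 1 log2 unit and 93 by 2. The fit recovered 32.2% and 89.2% of these and called 0.05% of unchanged genes. In the data 74.8% of genes tested were called, so the simulated rates need not hold there. The edgeR p-values rest on the spread of the sums around the fitted stage and mouse effects, with 3 mice as replicates. The permutation p-values of the shares rank the change from stage 1 to stage 12 among changes between pairs of stages drawn within each mouse. That set holds differences between stages, so these p-values do not measure the spread over mice. Stages, members and lists were chosen with earlier results of these data known. Named genes were the 9 members, the members of the lists, and the 5 genes most like each lactate dehydrogenase gene. Likeness used log2(CPM + 10). Copies were found by aligning the last 500 bases of each gene's transcripts to GENCODE M21. The other tables, thresholds and scalings tried are given in the closing section.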

Additional observations from a re-analysis of the deposited data

Results flagged for a closer look

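Ldhc and Ldha were found in wells outside the 12 stages, which entered no test between stages. Wells under 1000 UMIs (223, 63 and 186 wells in mice 1 to 3) held Ldhc at 1463, 1647 and 1457 CPM and Ldha at 822.9, 581.2 and 702.7 CPM, above the level that a count of 0 allows there (3 UMIs, or 34.3, 96.9 and 51.4 CPM). In the 11 elongating spermatid-like cells, which lie outside the 12 stages, Hk1 was at 78.2, 507.2 and 676.1 CPM in mice 1 to 3, above the 46.9, 54.3 and 32.2 CPM that a count of 0 allows, and beside 72.7 ± 22.2 CPM (SD, n = 3) at stage 12. These cells are 3, 3 and 5 in number, and no comparison was made.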

How the results depend on the processing

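Ldha, Ldhc and Pgam2 were higher, and Ldhb, Gapdh and Pgam1 lower, at stage 12 under every alternative run, with log2 changes of 3.31 to 5.13, 4.72 to 6.77, 4.66 to 7.26, -5.42 to -3.59, -3.32 to -1.68 and -3.87 to -2.11. Spike-in scaling turned Aldoa to 0.19, Eno1 to 0.04, Tigar to 0.82, Ldhc at stages 3 to 7 against stage 1 to -0.28, -0.28, -0.75, -0.65 and -0.23, and Ldhc at stage 3 against stage 2 to -0.37. Hk1 turned to -0.25 with DESeq2 size factors, -0.26 with DESeq2, -0.01 without a filter and with the table of reads, -0.04 with sums of at least 20 cells, -0.21 with the index-sorted library of mouse 3 alone, -0.18 with stages from even autosomes, -0.11 and -0.41 without mouse 2 and mouse 3, and -1.48 with stage 10 as the latest, a choice made after seeing the data, and was 0.53 and called without mouse 1; the cause was not tested. The number of tests against stage 1 that passed was 79 of 99, and 51 without the replicate block. Between neighbouring stages it was 27 of 99, against 6 without the replicate block, 17 with the table of reads and 45 with spike-in scaling. Aldoa and Eno1 lost their call at stage 12 without the replicate block (log2 changes -1.08 and -1.31, adjusted p = 0.0623 and 0.662, edgeR) and with the table of reads (-1.09 and -1.39, adjusted p = 0.0556 and 0.0734), and Eno1 also with DESeq2 (adjusted p = 0.336). The gain of the Ldhc share was 18.4 to 32.7 points and that of the Pgam2 share 76.0 to 90.4 points, and each passed its exact permutation test throughout. The Ldhb share changed by -13.5 to -7.4 points when 1 mouse was left out; it passed the exact permutation test without mouse 1 (-7.4 points, p = 0.0247). DESeq2 size factors moved the median log2 change of all genes to -0.35 and the calls to 3802 higher and 5416 lower.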
